A study of Homo sapiens with 8 samples.

Results

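The peaks compared here mark γH2AX in A2780 cells, a human ovarian carcinoma line, after Pt-ttpy and without drug. Chromatin was pulled down with an antibody against γH2AX and sequenced in 2 samples of untreated cells and 2 of cells given Pt-ttpy at its IC80 (the dose giving 80% inhibition) for 96 hours. Both samples of a group are tied by the labels to the same peak list, so each condition is 1 list with no replicates, and no test between conditions was possible. On chromosomes 1 to 22 of hg19 the Pt-ttpy list held 17416 peaks and the untreated list 9487, together 26903 of the 54434 peaks in the 3 lists of the series. A Pt-ttpy peak was classed as kept where it shared at least 1 bp with an untreated peak and as gained where it shared none, and an untreated peak with no Pt-ttpy peak on it was classed as absent. These are names for overlap between 2 lists and not for a measured change in signal. The label of the drug cannot be checked in a peak list.

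H2AX is a histone variant that is phosphorylated by kinases of the damage response, ATM, ATR and DNA-PK, in the chromatin around a DNA break, where γH2AX helps to hold repair proteins. The mark also appears at stalled replication forks and at uncapped telomeres. Pt-ttpy is a platinum complex that binds G-quadruplexes, folded structures of guanine-rich DNA found in telomere repeats and in many promoters. The study asked whether its damage falls in such DNA. No sequence is shown because no genome of the build of the lists was used here, so guanine content was not measured.

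Of the 17416 Pt-ttpy peaks, 10580 were gained, or 60.7% (exact 95% binomial interval 60.0 to 61.5), and 6836 were kept. In the other direction 469 of the 9487 untreated peaks were absent, or 4.94% (4.52 to 5.40), and 9018 were overlapped. Intervals of this kind cover counting only, since neighbouring peaks are not independent and the variation between cultures is not in the lists. The untreated list lacks 8532 of the 17168 peak numbers it reached on the autosomes (49.7%), whereas no number is missing from the Pt-ttpy list. Whether a gained place had an untreated peak under a missing number cannot be told from the list, so missing numbers are given beside many of the places they touch. The absent share covers retained untreated peaks only, and whether peaks under missing numbers lay off Pt-ttpy peaks is likewise unknown. For this reason the 60.7% and 4.94% do not measure an imbalance between the conditions. Read totals are not in the lists, so depth is unknown. The lists also stopped at different limits. The lowest fold over background was 2.62 for Pt-ttpy and 3.01 for untreated cells. By -log10 q the order was the reverse, with lowest values of 1.22 for Pt-ttpy and 1.00 for untreated cells.

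Gained peaks were short, and kept peaks were the wide ones. The median width was 151 bp for gained peaks (quartiles 117 and 214) and 343 bp for kept peaks (186 and 673). The narrowest width in the Pt-ttpy list, 101 bp, was reached by 828 gained and 46 kept peaks. Only 21 gained peaks were wider than 1 kb, against 1015 kept peaks. As a result the gained peaks, although the larger class, covered 1982 kb and the kept peaks 4346 kb. On all 22 autosomes the median gained peak was narrower than the median kept peak.

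Absent peaks were narrower still. Their median width was 100 bp and their widest 263 bp, and 259 of the 469 were under 101 bp, a width that no Pt-ttpy peak has. Among the overlapped untreated peaks 1424 of 9018 were that short (15.8%, against 55.2% of the absent ones). Short pieces are a feature of how the untreated list was deposited: 730 numbers stand on more than 1 piece, and for 2098 peaks the summit lies outside the region given. Few untreated edges fell on the same edge of a Pt-ttpy peak: 129 starts on a Pt-ttpy start and 139 ends on a Pt-ttpy end. These are 1.36% and 1.47% of all untreated peaks, and starts were not compared with ends. With pieces under 101 bp left out, 210 of 7804 untreated peaks were absent (2.69%).

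**Figure D1:**
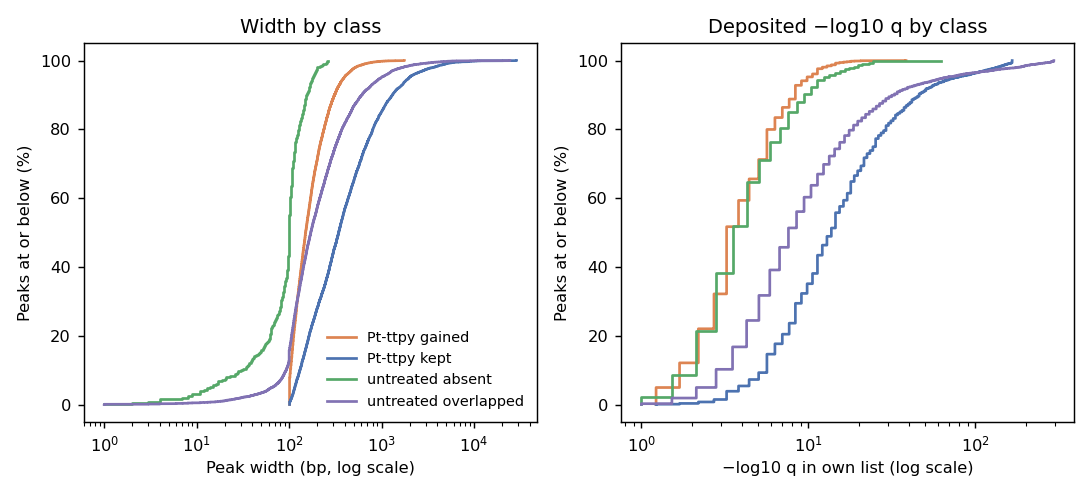
Cumulative share of peaks (percent) by width in bp and by deposited -log10 q, both on log axes, for gained and kept Pt-ttpy peaks and absent and overlapped untreated peaks. Gained peaks (median 151 bp) lie to the left of kept peaks (343 bp), and the absent curve jumps near 100 bp, its median. The q-values are each list's own and give no order between lists.

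Where both conditions had a peak, the Pt-ttpy peak was usually the wider. In 5370 places 1 Pt-ttpy peak matched 1 untreated peak and nothing else. The Pt-ttpy peak was wider in 4825 of these (89.9%) and narrower in 508, with medians of 277 and 150 bp. The median difference was 64 bp. Of the overlapped untreated peaks 6847 (75.9%) lay wholly inside a Pt-ttpy peak, whereas 219 kept peaks (3.20%) lay wholly inside an untreated one. Elsewhere 1 wide Pt-ttpy peak took the place of several untreated pieces: 840 kept peaks lay over 2 untreated peaks and 492 over 3 or more. The most was 14, under the Pt-ttpy peak chr1:16928095-16939472, in NBPF1, a member of a primate gene family spread by duplication. Untreated regions may be cut pieces of wider peaks, given the split numbers and the summits outside their regions, so these widths do not show that γH2AX spread farther. The part of depth and calling limit was not tested.

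Gained peaks stood low in the Pt-ttpy list and kept peaks high. The median -log10 q was 3.24 for gained and 13.7 for kept peaks, and a value of at least 5 was met by 34.4% and 92.7% of them. With the list cut into 10 equal parts by q, in the highest part 2 of 1742 peaks were gained (0.115%). In the fourth part 883 of 1742 were gained (50.7%), and in the last 1700 of 1741 (97.6%). The absent peaks also stood low in their list, with 1 of 949 in the highest part of the untreated list and 147 of 948 in the last (15.5%). Most of the gained class therefore consists of peaks in the lower part of the Pt-ttpy list, whose lowest -log10 q was 1.22.

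A few gained peaks were strong. The highest -log10 q, 38.5, belonged to chr4:190202673-190202843 (171 bp, fold 9.98), near the end of the long arm and 1482 bp from an untreated peak. The next was chr3:75864461-75864610, with a value of 25.3 and an untreated peak 426 bp away. The third, chr8:84927732-84927869, had 22.5 and lay 181864 bp from an untreated peak. The fourth, chr9:141081429-141081564 (21.5), lay 173 bp from an untreated peak and the fifth, chr1:142704248-142704520 (20.6), 133 bp, so that 4 of the 5 had an untreated neighbour close by but no shared base. Among gained peaks more than 1 Mb from any untreated peak, a group picked out after the values were seen, chr10:75084115-75084251 was highest, with 19.7 and 5340676 bp to the nearest untreated peak. The second of that group was chr6:109970883-109971029, with 17.9.

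The strongest absent peak was chr16:33954697-33954820, with a -log10 q of 62.5 in the untreated list, and a Pt-ttpy peak lay 263 bp away. The other 4 of the 5 strongest lay far from any Pt-ttpy peak. For chr8:37572983-37573086 (24.3) the distance was 1935413 bp, for chr11:130466862-130466990 (24.3) it was 1074077 bp, and for chr6:85280154-85280264 (23.2) it was 996736 bp. The remaining one, chr4:189074218-189074368 (20.9), lay 243455 bp away. These are single short regions of 104 to 151 bp, called without drug and not called after Pt-ttpy. Such lone peaks were uncommon: 25 of the 469 absent peaks (5.33%) were more than 1 Mb from a Pt-ttpy peak, and 322 (68.7%) were within 1 kb of one.

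Taking equal numbers from both lists lowered the gained share and left it above the absent share, which covers retained untreated peaks only. The 9487 highest Pt-ttpy peaks by -log10 q were set against all 9487 untreated peaks, which include split pieces and carry 8636 distinct numbers. Of the former 3234 were gained (34.1%, 33.1 to 35.1), and of the latter 1052 were absent (11.1%). If each matched peak had a single partner, both shares would be the same, since the lists are equally long. The gap between them comes from several untreated peaks lying on a single Pt-ttpy peak. It does not measure gain against loss, here or at the smaller numbers below. The Pt-ttpy limit then stood at a -log10 q of 5.04, where 734 peaks were tied and 242 of them were taken in order of position. The peaks on both sides of the limit had that same value, such as chr2:97851326-97851592 inside and chr2:98128791-98128999 outside, while the untreated list ended at 1.00033. With 5000 from each list 1535 Pt-ttpy peaks (30.7%) and 539 untreated peaks (10.8%) had no partner among the other 5000. With 1000 the numbers were 261 (26.1%) and 137 (13.7%), and with 500 they were 117 (23.4%) and 53 (10.6%).

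At up to 2500 top peaks, the unmatched ones were nearly all matched lower in the other list. Of the 1000 strongest Pt-ttpy peaks 1 lacked an untreated peak of any rank, and of the 1000 strongest untreated peaks 1 lacked a Pt-ttpy peak of any rank. Among the top 2500 the numbers were 28 (1.12%) and 20 (0.800%). At 5000, 65.8% of the unmatched Pt-ttpy peaks lay on a lower untreated peak. The numbers parted there, with 525 Pt-ttpy peaks (10.5%) and 94 untreated peaks (1.88%) off the whole other list. The whole lists are unlike: 9487 untreated peaks, with numbers missing, against 17416 Pt-ttpy peaks. A longer list offers more partners, so these counts do not compare gain with loss. At equal numbers the Pt-ttpy peaks also covered more sequence, 4862 kb against 2937 kb. The median gained peak at 9487 was 149.5 bp wide and the median kept peak 359 bp. With smaller numbers the order turned, since gained then means off the other list's top peaks: at 1000 the medians were 621 bp gained and 544 bp kept, and at 500 they were 761 and 691 bp.

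**Figure D2:**
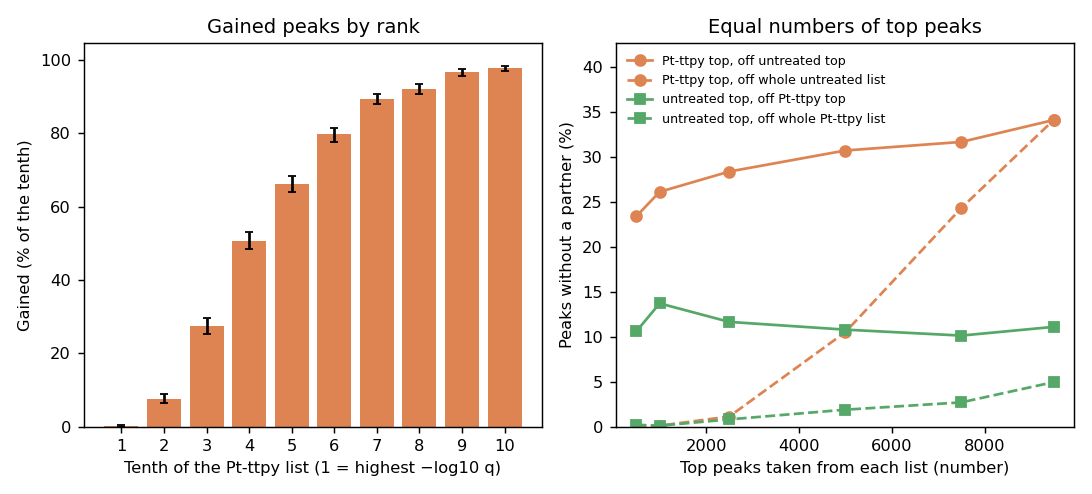
Left, share of gained peaks (percent) in each of 10 equal parts of the Pt-ttpy list from the highest to the lowest -log10 q, with exact 95% binomial intervals. Right, share of peaks without a partner (percent) against the number of top peaks taken from each list, with the other list cut to the same number (solid lines) or whole (dashed lines). Gained peaks go from 0.115% in the highest part to 97.6% in the lowest, and at 1000 peaks both dashed lines stand at 0.100%.

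Every autosome had more Pt-ttpy than retained untreated peaks, and in the full lists chromosome 1 had the highest gained share. It held 5336 Pt-ttpy and 1792 untreated peaks, with 3262 untreated numbers missing between retained neighbours. Of its Pt-ttpy peaks 4109 were gained (77.0%), which is 38.8% of all gained peaks, whereas 17.9% of kept peaks lay there. That 38.8% was 20.6% among gained peaks that reached a -log10 q of 5 and 23.2% at equal numbers. At equal numbers 40.5% of its own peaks were gained, below chromosome 18 (45.2%) and chromosome 6 (41.9%). Chromosome 13 had the second highest gained share, with 79 of 113 peaks (69.9%), and chromosome 6 the third, with 265 of 411 (64.5%). The lowest shares were on chromosome 10 (227 of 506, 44.9%), chromosome 7 (389 of 856, 45.4%) and chromosome 21 (465 of 998, 46.6%). The median over the autosomes was 52.9%, against 60.7% for all peaks, and without chromosome 1 the share of all peaks was 53.6%. Missing numbers limit these counts to the lists as deposited. Chromosome 13 had 113 Pt-ttpy and 48 untreated peaks with 133 untreated numbers missing between neighbours. On chromosome 20 there were 364 and 226 peaks with 80 numbers missing.

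Per megabase of assembled sequence chromosome 1 had 18.0 gained peaks, followed by chromosome 21 with 10.3, chromosome 16 with 9.51 and chromosome 15 with 7.56. The median chromosome had 2.55 and the lowest, chromosome 13, 0.822. Chromosome 21 had the most kept peaks per megabase, 11.8, and 19.9 untreated peaks per megabase. Absent peaks were found on all 22 autosomes. Chromosome 1 had the highest number, 128 of the 469 (27.3%), which is 7.14% of its 1792 untreated peaks. The share absent went from 1.80% on chromosome 3 (5 of 278) to 8.46% on chromosome 5 (17 of 201), with few peaks behind each value.

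**Figure D3:**
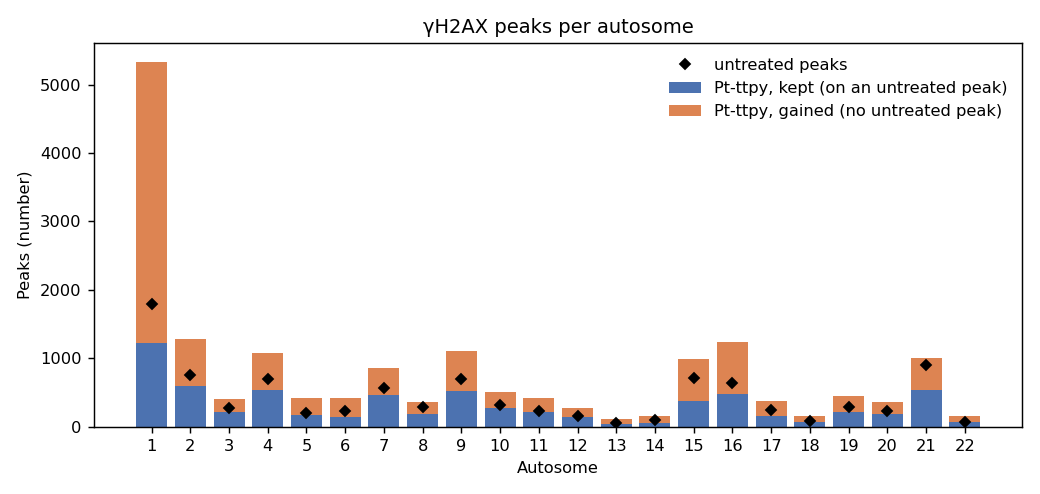
Number of peaks on each autosome: bars give Pt-ttpy peaks parted into kept and gained, and diamonds give retained untreated peaks, without the missing numbers. Chromosome 1 has 4109 gained peaks above 1227 kept ones, and on each autosome the bar ends above the diamond.

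The order of the chromosomes changed with equal numbers. Of the 9487 top Pt-ttpy peaks 458 were on chromosome 15, where there were 704 untreated peaks, and 659 were on chromosome 21, with 900 untreated peaks. In the full lists these chromosomes had 994 and 998 Pt-ttpy peaks, more than untreated. With all tied peaks added they had 521 and 702, still below the untreated counts, in which pieces of 1 number count apart. Chromosome 7 (662 against 565), chromosome 11 (309 against 235) and chromosome 2 (846 against 760) kept more Pt-ttpy than untreated peaks. On chromosome 1 there were 1853 Pt-ttpy against 1792 untreated peaks, but 198 of those were tied at the limit and taken first by position: without ties there were 1655, fewer than untreated. With ties left out 12 autosomes had more Pt-ttpy peaks and 10 had fewer. Chromosome 1 held 67.2% of the second lowest of the 10 equal parts of the Pt-ttpy list and 12.5% of the highest.

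Gained peaks, the larger class, were found in more windows than kept ones, a difference that number alone can give. Of 2746 windows of 1 Mb outside the large gaps, 763 held a gained peak (27.8%) and 468 a kept peak (17.0%). Pt-ttpy peaks without any untreated peak were found in 461 windows, both kinds in 503, and untreated peaks alone in 32. Of the 996 windows with a peak in either list 739 (74.2%) had more Pt-ttpy peaks, 195 had equal numbers and 62 had fewer. Most gained peaks nonetheless shared a window with an untreated peak, 8860 (83.7%), while 1720 (16.3%) lay in a window without. Sharing a window need not mean lying close: from 196 to 197 Mb on chromosome 1 there were 97 gained and 2 untreated peaks. A window without an untreated peak can still lie where untreated numbers are missing. Windows with 10 or more gained peaks numbered 217, of which 100 were on chromosome 1, and they held 90.3% of all gained peaks. With equal numbers of top peaks 411 of 779 windows (52.8%) had more Pt-ttpy peaks and 136 had fewer.

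**Figure D4:**
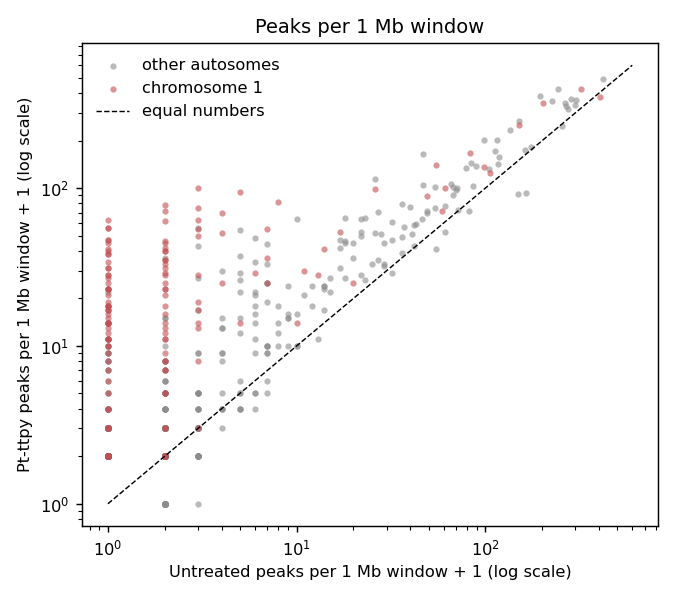
Pt-ttpy peaks against untreated peaks in each 1 Mb window with a peak in either list, both plus 1 on log axes, with chromosome 1 in red. Of the 996 windows 739 lie above the dashed line of equal numbers. The column at no retained untreated peak holds 461 windows, 71 of them on chromosome 1. Of its 47 windows with 10 or more Pt-ttpy peaks 40 are on chromosome 1, and the column reaches 62.

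The windows with the most gained peaks were also rich in untreated and kept ones. From 32 to 33 Mb on chromosome 16, in duplicated sequence of the short arm near the centromere, there were 243 gained, 141 kept and 193 untreated peaks. The window from 190 to 191 Mb on chromosome 4 held 226 gained and 198 kept peaks. It reaches the D4Z4 array, the macrosatellite repeat whose units carry DUX4. Of its gained peaks 154 stood apart from the array, in chr4:190470286-190684295. The array lies in a cluster of 151 kept peaks, chr4:190796210-191044234. The window from 145 to 146 Mb on chromosome 1 held 219 gained and 127 kept peaks. From 9 to 10 Mb on the short arm of chromosome 21 there were 218 gained and 271 kept peaks, and from 20 to 21 Mb on chromosome 15 there were 204 and 162. In these 5 windows the gained share went from 44.6% (chromosome 21) to 63.3% (chromosomes 1 and 16), on both sides of the 60.7% of all Pt-ttpy peaks. Missing untreated numbers with both neighbours in the window were 125 on chromosome 16, 125 on chromosome 4, 109 on chromosome 1, 100 on chromosome 21 and 104 on chromosome 15.

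Windows with the most absent peaks were dense in untreated peaks. The window from 145 to 146 Mb on chromosome 1 had 20 absent of 201 untreated peaks (9.95%), and that from 190 to 191 Mb on chromosome 4 had 15 of 243 (6.17%). From 148 to 149 Mb on chromosome 1 there were 11 of 150 (7.33%). From 22 to 23 Mb on chromosome 15 there were 13 of 296 (4.39%) and from 10 to 11 Mb on chromosome 21 12 of 268 (4.48%), both below the 4.94% of all untreated peaks. Each of these windows had between 153 and 226 gained peaks, and 2 of the 5 were also among the 5 with most gained peaks. The clearest shortfalls of Pt-ttpy peaks, looked up after the values were seen, were elsewhere. From 11 to 12 Mb on chromosome 21 there were 92 Pt-ttpy against 164 untreated peaks with 3 absent, and from 86 to 87 Mb on chromosome 8 there were 91 against 147 with 1 absent. Of the Pt-ttpy peaks in these windows 73 and 70 were kept, so nearly all the untreated peaks had a partner and several shared one.

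The 5 windows with most kept peaks lay within 5 Mb of a centromere gap. From 142 to 143 Mb on chromosome 1, just beyond the gap, 271 of 378 Pt-ttpy peaks were kept and 1 of 403 untreated peaks was absent. The window from 9 to 10 Mb on chromosome 21 also had 271, and that from 143 to 144 Mb on chromosome 1 had 231 kept and 194 gained peaks. The window from 49 to 50 Mb on chromosome 4 had 235 kept and 128 gained peaks, and that from 61 to 62 Mb on chromosome 7 had 211 and 135. Within 5 Mb of a centromere gap 4919 of 9965 Pt-ttpy peaks were gained (49.4%), and farther away 5661 of 7451 (76.0%). Without chromosome 1 the share farther away was 63.5% (2359 of 3715). Absent untreated peaks showed the same order, with 3.45% within 5 Mb (241 of 6980) and 9.09% beyond (228 of 2507).

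On the long arm of chromosome 1 each of the 108 windows of 1 Mb held a gained peak. Beyond 150 Mb, a limit set after the values were seen, there were 2771 gained and 118 kept peaks, with 2 to 97 gained peaks in a window and a median of 22. The untreated list had 179 peaks there, and 2420 untreated numbers were missing. The window from 190 to 191 Mb had 62 Pt-ttpy peaks and no retained untreated one. It holds most of BRINP3, in a gene-poor stretch. The untreated numbers missing across this window are not given here, so it cannot be called free of untreated peaks. Those from 174 to 175 Mb and from 225 to 226 Mb had 55 each, again with no retained untreated peak. The 2 windows lie in intervals with missing untreated numbers: 94 in chr1:173011172-176060890 and 120 in chr1:224202697-228744570. Whether untreated peaks under these numbers lay in the windows cannot be told. The window from 174 Mb holds most of RABGAP1L and that from 225 Mb LBR, which encodes the lamin B receptor of the nuclear envelope. Windows with genes thus had gained peaks as well. The short arm of chromosome 1 had 394 gained and 279 kept peaks.

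Read in order along the chromosomes, gained and kept peaks mostly alternated in short runs. Gained peaks formed 2621 runs, of which 1225 were single peaks, and the median run was 2. Runs of 10 or more gained peaks numbered 181, of which 63 were on chromosome 1, and held 48.1% of gained peaks. Of the kept peaks 17.9% stood in runs of 10 or more kept ones. Gained peaks are 60.7% of the list, and a larger class has longer runs by number alone, so these shares do not rank the classes. The 3 longest were all on the long arm of chromosome 1: 245 gained peaks in chr1:189406859-193093206, 218 in chr1:172287880-178646944 and 175 in chr1:185700720-189366438. The longest run of kept peaks had 51.

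Clustering was measured by chaining peaks that lay within 10 kb of the next of their class. By this measure 8728 of 10580 gained peaks (82.5%) had another gained peak in their cluster, against 6336 of 6836 kept peaks (92.7%) and 131 of 469 absent peaks (27.9%). Clusters of 10 or more held 51.0% of gained and 77.9% of kept peaks. The classes differ in number, and a larger class has closer neighbours by number alone, so these shares describe each class and do not rank them. At 1 kb the gained share was 46.3% and at 100 kb it was 94.6%.

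The 5 largest gained clusters each had kept peaks among them. The first, chr16:32329537-32603360, had 156 gained and 58 kept peaks, and 75 untreated peaks with 5 absent. It also held 3 of the 5 widest gained peaks, led by chr16:32546325-32548087 at 1763 bp. The second, chr4:190470286-190684295, had 154 gained and 58 kept peaks. The third, chr1:145183457-145382101, had 133 gained and 69 kept peaks. It covers NOTCH2NL and NBPF10, genes of human-specific duplications.

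The fourth cluster, chr6:57207649-57468847, had 122 gained and 49 kept peaks over 88 untreated ones, 8 of them absent. It lies in PRIM2, which encodes the large subunit of DNA primase and has closely related extra copies missing from this build. The fifth, chr16:71049681-71201951, had 117 gained and 23 kept peaks over 38 untreated ones. It lies in HYDIN, a gene of motile cilia with a near-identical copy on chromosome 1, and it was the one of the 5 away from a centromere and a chromosome end. Peaks in genes with near-identical copies are uncertain, since short reads of the copies cannot be told apart. The widest absent peak, chr6:57408509-57408771 (263 bp), was in PRIM2 as well, 2 bp from a Pt-ttpy peak.

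The 5 largest clusters of kept peaks were elsewhere. The first, chr4:190796210-191044234, had 151 kept peaks over 171 untreated ones with 4 absent, and covers FRG1 and the D4Z4 array at the end of the arm. It lies just beyond the second gained cluster on the same arm end. The others were chr21:9825433-10034822 with 134 kept peaks, chr1:142781100-142967686 with 133, chr9:68356158-68513534 with 118 and chr7:57911756-58054125 with 104. The highest -log10 q of their kept peaks lay between 68.3 and 163, against 7.68 to 14.5 for the gained peaks of the gained clusters.

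Gained peaks stood close to untreated ones outside chromosome 1. Their median distance to the nearest untreated peak was 4700 bp (quartiles 701 and 155212). It was 1864 bp with chromosome 1 left out and 113210 bp on chromosome 1. Within 1 kb of an untreated peak there were 3246 gained peaks (30.7%), within 10 kb 5972 (56.4%), and beyond 1 Mb 906 (8.56%). With chromosome 1 left out 39.0% lay within 1 kb and 71.4% within 10 kb. Where a peak within 1 kb counted as overlap, 7334 of 17416 Pt-ttpy peaks were gained (42.1%).

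Most gained peaks and most of the assembled sequence lay in intervals with missing untreated numbers. Numbers follow position in both lists, so a number missing between retained neighbours can be placed between them. Of 9465 intervals between retained untreated neighbours 7270 had no number missing and 2195 had some, 8451 numbers in all. The intervals with missing numbers held 8986 gained peaks (84.9%) and those with unbroken numbers 1492 (14.1%, 13.4 to 14.8). The other 102 lay beyond the first or last retained peak of a chromosome. A gained peak was found in 80.7% of intervals with missing numbers (1771) and in 14.2% of unbroken ones (1032). The broken intervals were longer, with medians of 4.02 and 0.345 kb, and made up 2574 of the summed Mb against 168 (93.9%), so a larger number with a gained peak goes with their length. Per megabase the unbroken ones had more gained peaks, 8.87 against 3.49. In 1435 of the 2195 broken intervals there were at least as many gained peaks as missing numbers.

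The longest broken interval lacked 120 numbers and held 131 gained peaks, at chr1:224202697-228744570. The next, chr1:169323693-172008915 and chr1:185609358-188509113, lacked 103 each and held 91 and 105. The 5 longest were all on chromosome 1. If each missing number stood for 1 untreated peak on a gained one in its interval, up to 6244 of the 10580 gained peaks would be accounted for, and 4336 (41.0%) would remain. On chromosome 1 those remaining would be 1161 of 4109 (28.3%), on chromosome 13 15 of 79 (19.0%) and on chromosome 20 110 of 182 (60.4%). Over the 22 autosomes gained peaks and missing numbers had a Pearson correlation of 0.995, and of 0.935 without chromosome 1. This is a description over chromosomes, whose length enters both counts. On 8 autosomes there were at least as many missing numbers as gained peaks.

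**Figure D5:**
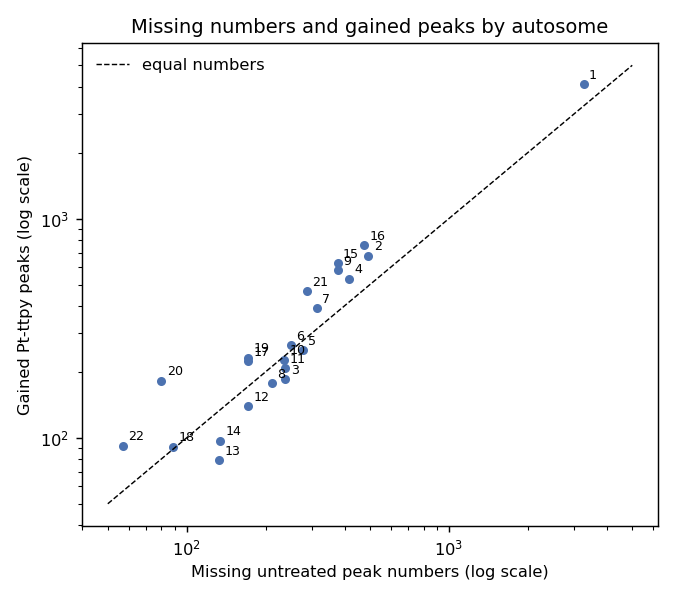
Gained Pt-ttpy peaks against missing untreated peak numbers placed between retained neighbours, for each autosome (labelled by number), on log axes. Chromosome 1 is far out with 3262 missing numbers and 4109 gained peaks, and 8 autosomes lie on or below the dashed line of equal numbers.

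Gained peaks in unbroken intervals are those that no missing number can stand for. A retained number may still stand on a cut piece of a wider peak, and whether the part cut away lay over a gained peak was not tested. Of the 1492 gained peaks in unbroken intervals 76.0% lay within 5 Mb of a centromere gap, against 42.0% of those in broken intervals. Their median -log10 q was 5.04 and that of the others 3.24, with widths of 152 and 150 bp. On chromosome 1 they were 278 of 4109 (6.77%), and on the other autosomes 1214 of 6471 (18.8%). Among gained peaks that reached a -log10 q of 5, they made up 827 of 3640 (22.7%). They mostly stood close to untreated peaks: of gained peaks more than 1 kb from an untreated peak 326 of 7334 lay in unbroken intervals (4.45%). Gained peaks between 2 pieces of 1 untreated number were 2.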

How the data were processed

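Peak lists of the untreated and Pt-ttpy groups were used as deposited. Per the submitters' processing notes, reads were aligned with BWA 0.7.5 and peaks called with MACS2 2.1.0 on hg19. Neither the calling settings nor the control, nor how replicates were combined, is given in the sources used here. The name of the Pt-ttpy list also includes the untreated group, and whether that group served as its control is not stated. The deposited columns are a fold ratio over background, -log10 of the p-value and of the q-value, a whole-number score made from the latter, and a summit. These are the authors' values and were used to rank and describe peaks within a list. Reads were single, of 50 bases, from fragments of 200 to 700 bp per the labels' protocols.

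Overlap was 1 bp or more, windows were 1 Mb by peak midpoint, and clusters were chained within 10 kb. Equal-number lists were ranked by -log10 q, then p, fold and position. Chromosome lengths, centromere gaps and the genes named as landmarks are from general knowledge of hg19. No region lay wholly inside a gap (0), and 1 per list touched a gap edge. Named regions were the 5 highest by each measure (number in a window, -log10 q, width, cluster size), the 3 chromosomes with the highest and lowest gained share, and peaks beside the equal-number limit. Members, rules and lists were chosen with earlier results of these data known. Overlap, distance and numbering code was tested on simulated data with planted answers. Software was matplotlib 3.10.9, scipy 1.17.1, pandas 2.3.3 and numpy 2.4.6 under Python 3.11.15. The alternatives tried are in the closing section. Cisplatin and input samples were not used here.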

Additional observations from a re-analysis of the deposited data

Results flagged for a closer look

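Peaks on the sex chromosomes entered no comparison above. Chromosome X had 373 Pt-ttpy and 222 untreated peaks, of which 188 Pt-ttpy peaks (50.4%) were gained and 8 untreated peaks absent. On chromosome Y there were 433 Pt-ttpy and 380 untreated peaks, with 121 (27.9%) gained and 10 absent. Both counts were above those retained in the untreated list, as on every autosome, and the placement of reads on these chromosomes was not tested.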

How the results depend on the processing

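Of 46 alternative values that could differ, 6 stayed within the counting interval of the main value, or within 1.5 times for widths, 40 moved and 0 reversed. The other 2 were the same by construction: ranking by fold, since each fold goes with 1 q-value, and the whole untreated list, which the equal number already takes. The gained share of Pt-ttpy peaks (60.7%) and the absent share of untreated peaks (4.94%) were 73.0% and 6.44% with an overlap of 50% of the peak's own length, 42.1% and 1.55% with peaks within 1 kb counted as overlapping, 47.9% and 4.31% where both lists had to reach a -log10 q of 5, 36.5% and 2.38% with that limit on the list classed alone, 71.4% and 7.08% with regions within 1 kb merged, 53.6% and 4.43% without chromosome 1, and 76.0% and 9.09% without sequence within 5 Mb of a centromere gap. Without untreated pieces under 101 bp, an alternative added after seeing the data, the absent share was 2.69%.

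In the same order, from the 50% overlap to merging, the share of gained peaks on chromosome 1 (38.8%) was 35.9%, 46.2%, 21.4%, 20.6% and 52.5%, and 58.3% away from gaps. The clustered share of gained peaks (82.5%) was 85.5%, 73.9%, 84.7%, 79.1% and 61.3%, then 87.3% without chromosome 1 and 71.0% away from gaps. It was 46.3% with neighbours within 1 kb and 94.6% within 100 kb. The median width of gained minus kept peaks (-192 bp) was -108 bp with the 50% overlap, -116.5 bp with peaks within 1 kb counted and -1066.5 bp after merging, where it spans gaps between peaks. Gained peaks were the narrower class under each alternative to this value, but not among the top 1000 peaks of each list (621 bp gained, 544 bp kept).

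The gained share at equal numbers (34.1%) was 30.7% with 5000 and 26.1% with 1000 top peaks, 16.8% with peaks within 1 kb counted, and 32.9% without the tied peaks, added after seeing the data. The share of gained peaks in unbroken numbering (14.1%) was 4.45% with peaks within 1 kb counted, 22.7% above the stricter q limit and 18.8% without chromosome 1. The cause of these moves was not tested. No paired analysis was possible because both replicates of a group are tied to 1 list, and for the same reason no replicate could be left out. Depth is unknown, and the calling limits differ between the lists, so shares near the limit are the least certain.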
